A study of Mus musculus with 9 samples.

Results

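The mitochondrial genome of the mouse encodes 13 proteins of the respiratory chain and ATP synthase, and the transcripts of 9 of them (ND1, ND2, ND4, ND5, CYTB, COX1, COX2, COX3 and ATP6) were followed in liver. The genes were taken by symbol from a table of 24008 genes, and all 9 passed the filter on low counts that left 14379 genes for testing. The other mitochondrially encoded genes, ND3, ND4L, ND6 and ATP8, were read beside them. Liver RNA of mice with nonalcoholic steatohepatitis (NASH), in 9 libraries, 3 per group, was sequenced to ask how deletion of interferon regulatory factor 4 (IRF4) in skeletal muscle, and return of the secreted protein follistatin-like 1 (FSTL1) to that muscle, register in the liver. WT mice are the genotype controls, taken as the Flox mice of the study. F4MKO mice lack IRF4 in skeletal muscle. F4MKO+FSTL1 mice carry the same deletion and received an adeno-associated virus with FSTL1 under the muscle creatine kinase promoter into the gastrocnemius. All groups ate a diet rich in fat and carbohydrate, for 24 weeks in the account of the mouse experiments and for 12 weeks in the account of the virus, and livers were taken 4 weeks after the virus. The methods place a GFP virus in the controls and in F4MKO mice, whereas the labels name no vector for them. For the study as a whole, the reporting summary gives male mice aged 8 weeks, on a C57BL/6J background shared by the Myl-Cre and the IRF4 flox/flox lines. Elsewhere it states that both sexes were used. After at least 12 weeks of diet, 8 weeks cannot be the age at which livers were taken. The labels repeat none of these details for the sequenced livers. The labels do not tie the replicates to separate animals, so p-values measure the spread between these samples.

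Oxidative phosphorylation is built from both genomes. ND1, ND2, ND4 and ND5 are membrane subunits of complex I, which takes electrons from NADH and pumps protons. CYTB, or cytochrome b, is the only mitochondrially encoded subunit of complex III, COX1, COX2 and COX3 form the catalytic core of complex IV, which passes electrons to oxygen, and ATP6 is part of the proton channel of ATP synthase, complex V. The mitochondrial genome is transcribed as long polycistronic RNAs from both strands, which are cut at the tRNAs between most genes, so that the level of each mature transcript also depends on processing and stability. On the mitochondrial genome (GRCm38.p6, RefSeq), ND1 lies at chrM:2751-3707, ND2 at chrM:3914-4951, COX1 at chrM:5328-6872, COX2 at chrM:7013-7696, ATP6 at chrM:7927-8607, COX3 at chrM:8607-9390, ND4 at chrM:10167-11544, ND5 at chrM:11742-13565 and CYTB at chrM:14145-15288. All 9 are on the plus strand and have no intron, and ATP6 and COX3 share 1 base. The liver is rich in mitochondria, and in NASH its mitochondrial function is known to change.

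The libraries held from 20656976 to 24322984 reads assigned to genes. Levels are given in CPM, counts relative to library size, after normalization by the TMM method, whose factors ran from 0.927 to 1.17, the highest in F4MKO replicate 1. Irf4 was deleted in another tissue, so its liver level checks no label, and it ran from 4.48 to 5.84 CPM in WT, from 4.24 to 5.36 CPM in F4MKO and from 0.467 to 6.06 CPM in F4MKO+FSTL1 livers. Fstl1 made by the liver itself ran from 6.15 to 7.62, from 9.80 to 16.1 and from 3.22 to 5.33 CPM in the same order. The summed level of 8 hepatocyte genes was at least 69329 CPM in every library, and that of the skeletal muscle genes was at most 0.460 CPM.

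Nuclear copies of mitochondrial DNA matter for these genes, since a read that matches both genomes equally well cannot be placed. The mitochondrial genes were matched to the nuclear transcripts of GENCODE vM21 (build GRCm38, the build mm10 of the counts). Of 21 copies found, 7 were at least 99.71% identical to their gene and lay side by side on the minus strand of chromosome 1 (chr1:24611535-24616197). Nuclear copies outside annotated transcripts were not searched for. None of the 21 copies has counts of its own among the genes analysed here. The copies on chromosome 1 cover 99.6% of COX2 (Gm28661), 99.6% of ATP6 (Gm10925), 99.9% of COX3 (Gm28437), 63.6% of ND4 (Gm28439) and 31.3% of COX1 (Gm29216). For ND1 no annotated nuclear transcript matched, and the best copies of ND2, ND5 and CYTB were 96.67%, 95.18% and 92.91% identical. The following stretches of 60 bases, from the same position in each gene, are shown because they mark both ends of this range, from a gene that cannot be told from its copy to 1 that can. Capitals mark the bases at which a gene and its copy differ, and the sequences come from GENCODE.
COX2, chrM:7313-7372, plus strand: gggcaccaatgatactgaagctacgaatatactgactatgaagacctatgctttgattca
Gm28661, chr1:24615206-24615265, minus strand: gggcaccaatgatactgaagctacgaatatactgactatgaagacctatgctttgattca
COX3, chrM:8907-8966, plus strand: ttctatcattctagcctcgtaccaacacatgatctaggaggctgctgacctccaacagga
Gm28437, chr1:24613612-24613671, minus strand: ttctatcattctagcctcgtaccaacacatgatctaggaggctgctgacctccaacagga
COX1, chrM:5628-5687, plus strand: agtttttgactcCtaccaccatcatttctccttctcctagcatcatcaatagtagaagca
Gm13340, chr2:22589288-22589347, minus strand: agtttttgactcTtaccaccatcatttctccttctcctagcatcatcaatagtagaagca
CYTB, chrM:14445-14504, plus strand: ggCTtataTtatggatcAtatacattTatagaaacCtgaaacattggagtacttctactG
Gm11410, chr4:80004289-80004348, plus strand: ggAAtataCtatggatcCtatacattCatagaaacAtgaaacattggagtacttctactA
In this window COX2 and COX3 had 0 mismatches to their copies, COX1 had 1 to its full-length copy on chromosome 2, and CYTB had 7.

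On the scale of CPM per kilobase of gene, COX1 had the highest level, with a mean of 12966 over the 9 libraries (range 11456 to 16208). ND2 (9233, range 7990 to 11098), CYTB (9044, 7473 to 11331) and ND1 (8164, 6892 to 9651) followed, and the ranges of these 3 overlapped. ND4 stood apart from its neighbours at 3942 (3176 to 4681). At the low end were ATP6 (1990, 1613 to 2327), COX2 (1966, 1530 to 2378), ND5 (1399, 971 to 2024) and COX3 (1204, 884 to 1520), each overlapping its neighbour. COX1, COX2 and COX3 belong to the same enzyme, yet COX2 and COX3 were counted far below COX1 per kilobase. The 3 genes that lie almost wholly inside a copy, COX2, ATP6 and COX3, were among the 4 lowest, and ND5, without such a copy, was the other. Of the other mitochondrially encoded genes, ND3 and ND4L, almost wholly inside copies, had means of 358 and 158 CPM per kilobase, whereas ND6, without such a copy, had 3410. ATP8 was nearly uncounted, with 17 to 60 reads per library. It overlaps ATP6 by 43 bases, which lie inside Gm10925, the copy that matches ATP6 from its first base. The search itself gave no annotated nuclear transcript for ATP8. The rest of ATP8 lies between COX2 and ATP6, whose copies are neighbours on chromosome 1, and the stretch between those copies was not searched. How reads that fit several places were counted is not given in the sources used here, and the part of the copies in these levels was not tested.

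**Figure D1:**
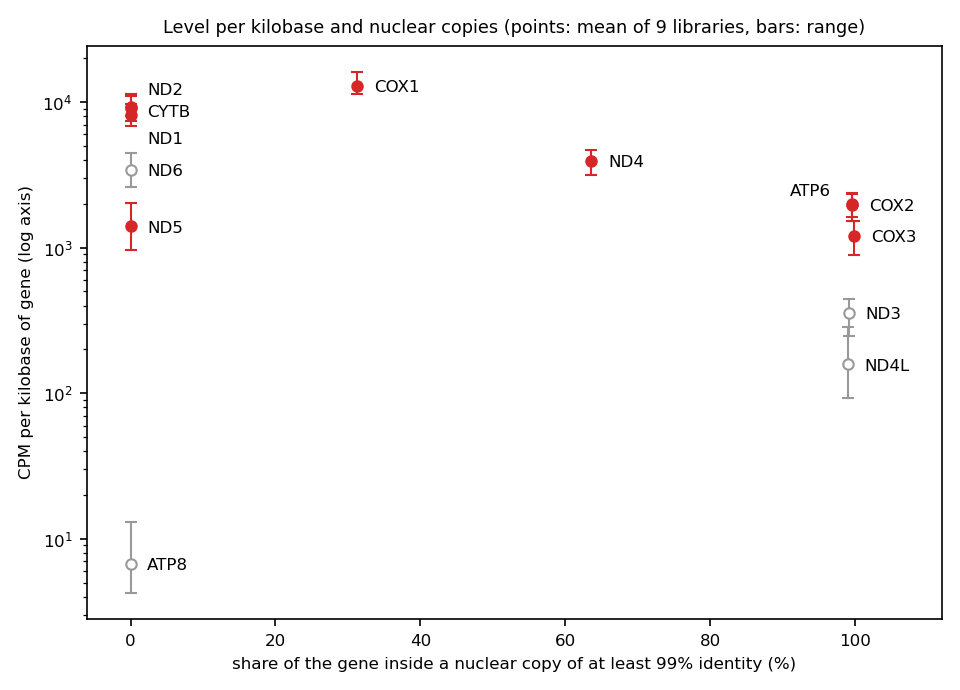
Mean CPM per kilobase over 9 libraries (vertical log axis, bars from the lowest to the highest library) against the share of each gene, in percent, that lies inside a nuclear copy of at least 99% identity. Filled red points are the 9 genes described and open grey points the other 4. ATP8 is drawn at 0, since the search gave no annotated nuclear transcript for it, although the 43 bases it shares with ATP6 lie inside Gm10925. COX2, ATP6 and COX3 lie at the right at or below 2378 CPM per kilobase, and ND2, CYTB and ND1 lie at the left between 6892 and 11331.

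The 9 genes together took 5.37%, 6.01% and 5.54% of all counts in WT replicates 1 to 3, 6.02%, 6.81% and 5.35% in F4MKO, and 6.62%, 5.94% and 5.67% in F4MKO+FSTL1 livers. The groups overlapped in each pairing. In F4MKO livers replicate 2 was the highest of its group for 8 of the 9 genes, COX3 being the exception, and in F4MKO+FSTL1 livers replicate 1 was the highest for 7.

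None of the 9 genes passed the test in liver between F4MKO and WT mice, by edgeR's quasi-likelihood test at an adjusted p under 0.05 and a fold change above 1.5. None had an unadjusted p under 0.05, against 2424 of all 14379 genes tested, and DESeq2 also called 0. Of all genes tested, 0.271% were called in this comparison, 29 higher and 10 lower, and 0.278% passed the adjusted p alone. With library totals in place of TMM factors, the median log2 fold change of all genes moved from 0.00 to 0.11 and the calls were 53 higher and 6 lower. The median log2 fold change of the 9 genes was -0.02, with 3 higher and 6 lower, against 6 higher and 3 lower with library totals and 5 and 4 with upper quartile scaling.

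ND1 was at 7948, 7435 and 7860 CPM in WT livers and at 6595, 9236 and 7559 CPM in F4MKO livers, so that the F4MKO libraries lay on both sides of the WT ones. Its log2 fold change was 0.01 (95% interval -0.31 to 0.33, adjusted p = 0.983 from edgeR). ND2 was at 9068, 9274 and 9052 CPM in WT and at 8658, 11520 and 8293 CPM in F4MKO livers. Here WT was narrow and F4MKO wide, with SDs of 123 and 1767 CPM. CYTB showed the same spread, with 9665, 9924 and 9465 CPM in WT against 8593, 11524 and 8549 CPM in F4MKO livers, and a log2 fold change of -0.02 (95% interval -0.35 to 0.31). COX1, the most counted of the 9, was at 17704, 21018 and 18791 CPM in WT and at 17699, 21130 and 17753 CPM in F4MKO livers, and the groups covered nearly the same range.

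COX2 was at 1315, 1162 and 1527 CPM in WT and at 1047, 1343 and 1097 CPM in F4MKO livers, a log2 fold change of -0.20 (95% interval -0.52 to 0.12). COX3 was at 955, 781 and 1011 CPM in WT and at 693, 819 and 878 CPM in F4MKO livers, also with a log2 fold change of -0.20 (95% interval -0.50 to 0.10, adjusted p = 0.485 from edgeR). In both genes the groups overlapped. ATP6 was at 1298, 1182 and 1420 CPM in WT and at 1201, 1395 and 1098 CPM in F4MKO livers. ND4 was at 5753, 4890 and 5097 CPM in WT and at 4377, 5691 and 4446 CPM in F4MKO livers. For each of them F4MKO replicate 2 lay inside the WT range. ND5 was the most variable, with 1770, 3133 and 2092 CPM in WT and 2690, 3693 and 2275 CPM in F4MKO livers, a log2 fold change of 0.31 with a wide 95% interval of -0.24 to 0.86. All 9 genes overlapped between the groups in CPM, which makes 0 without overlap against 21.8% of all genes tested.

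**Figure D2:**
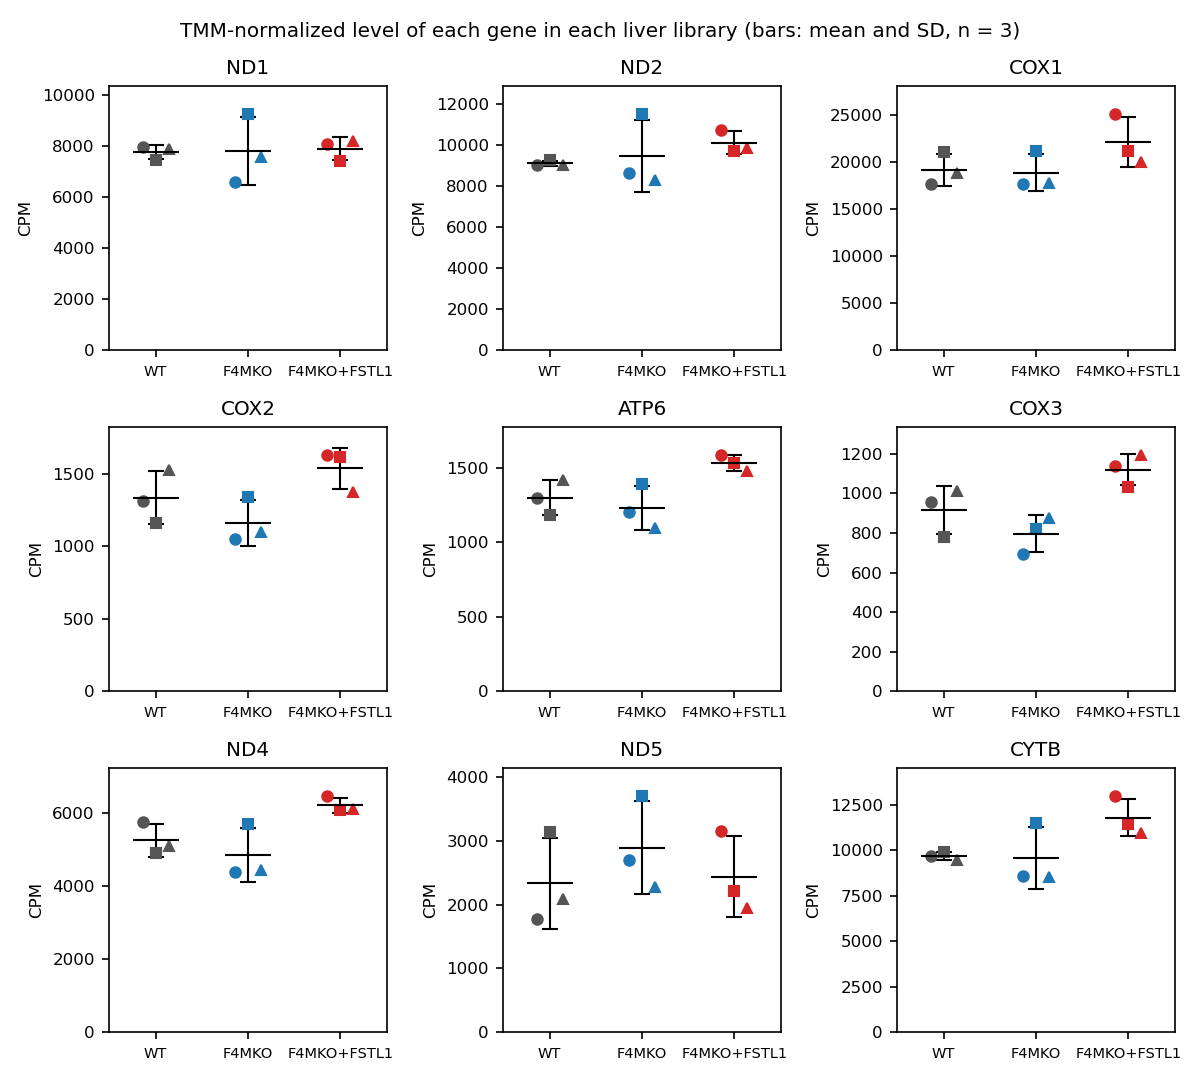
TMM-normalized level of each gene (CPM, vertical axes from 0) in the 3 WT, 3 F4MKO and 3 F4MKO+FSTL1 libraries. Circles, squares and triangles are replicates 1, 2 and 3, and black bars give the mean and SD. The F4MKO+FSTL1 libraries lie above every F4MKO library for COX2, ATP6, COX3 and ND4, and these groups overlap for the other 5 genes.

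Between F4MKO+FSTL1 and F4MKO livers none of the 9 genes passed both thresholds either, while COX3 passed the adjusted p without the fold change in edgeR, and COX3, COX2, ND4 and ATP6 did so in DESeq2, the tool of the study. The share of all genes past the adjusted p alone in DESeq2 was not counted, so that result has no background beside it. COX3 was at 1136, 1033 and 1192 CPM in F4MKO+FSTL1 livers, each above the highest F4MKO library at 878 CPM. Its means were 1120 ± 80.6 and 797 ± 94.2 CPM (SD, n = 3), a 1.41-fold difference (log2 fold change 0.49, SE 0.14, 95% interval 0.19 to 0.79, adjusted p = 0.0259 from edgeR). Under 17 alternatives its adjusted p ran from 0.00155 to 0.0830 and was under 0.05 in 12. It was 0.0651 with library totals, 0.0830 without F4MKO replicate 1, 0.0536 without F4MKO replicate 2, 0.0603 without F4MKO+FSTL1 replicate 1 and 0.0686 without F4MKO+FSTL1 replicate 3. COX3 is also the gene of which 99.9% lies inside a nuclear copy.

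Of all genes tested, 14.4% were called in this comparison, 461 higher and 1609 lower, and 20.9% passed the adjusted p alone, so 1 of 9 genes past the adjusted p in edgeR is a share below the background. With library totals the calls were 215 higher and 2282 lower, and the median of all genes was -0.18 in place of 0.01. The median log2 fold change of the 9 genes was 0.30, with 8 higher and 1 lower, against 6 higher and 3 lower with library totals, where their median was 0.12, and 7 and 2 with upper quartile scaling. At an unadjusted p under 0.05 there were 4 genes, COX2, ATP6, COX3 and ND4, against 5080 of all 14379 genes tested. The normalized levels did not overlap between groups for the same 4 of 9, against 39.0% of all genes tested.

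COX2 was at 1627, 1612 and 1374 CPM in F4MKO+FSTL1 livers, above the F4MKO maximum of 1343 CPM, with a log2 fold change of 0.40 (95% interval 0.09 to 0.72, adjusted p = 0.0683 from edgeR). ATP6 was at 1585, 1535 and 1483 CPM, above the F4MKO maximum of 1395 CPM, with a log2 fold change of 0.32 (95% interval 0.04 to 0.59, adjusted p = 0.0937). ND4 was at 6451, 6084 and 6098 CPM, above the F4MKO maximum of 5691 CPM, with a log2 fold change of 0.36 (95% interval 0.05 to 0.67, adjusted p = 0.0898). With DESeq2 the adjusted p was 0.0193 for COX2, 0.0268 for ATP6 and 0.0180 for ND4, each with a fold change under 1.5. Over 17 alternatives it was under 0.05 in 2 for COX2, 1 for ATP6 and 2 for ND4, and its highest values were 0.243, 0.471 and 0.288. These genes lie in the stretch of the mitochondrial genome, from COX1 to ND4, that is copied on chromosome 1. Among the genes described, the 5 that share sequence with those copies, COX1 included, had log2 fold changes from 0.23 to 0.49. The 4 that do not, ND1, ND2, ND5 and CYTB, ran from -0.24 to 0.30. ND3 (0.40) and ND4L (-0.36), which are not among the genes described, also lie almost wholly inside those copies. ND6, without such a copy, was at 0.09. With ND4L the copied genes ran from -0.36 to 0.49, which covers the whole range of the 4 without a copy. The grouping into 5 and 4 genes was chosen after the values were seen, and the part of the copies in it was not tested.

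CYTB was at 12963, 11469 and 10966 CPM in F4MKO+FSTL1 livers, and F4MKO replicate 2 (11524 CPM) lay inside that range. Its log2 fold change was 0.30 (95% interval -0.03 to 0.64, adjusted p = 0.176 from edgeR). COX1 was at 25041, 21202 and 19959 CPM, and the groups overlapped at F4MKO replicate 2 (21130 CPM). ND2 was at 10768, 9731 and 9892 CPM, ND1 at 8076, 7395 and 8210 CPM and ND5 at 3149, 2207 and 1951 CPM, and all of these ranges lay across the F4MKO ones. ND1, at a log2 fold change of 0.02 (95% interval -0.30 to 0.34), and ND2, at 0.09, were the nearest to 0. ND5 was the only 1 of the 9 with a lower mean, at -0.24 (95% interval -0.80 to 0.31). The other 4 mitochondrially encoded genes were not called in any comparison. In F4MKO+FSTL1 against F4MKO livers ND3 was 0.40 higher on the log2 scale, with an adjusted p of 0.0728 from edgeR, ND6 was at 0.09, ND4L at -0.36 and the sparsely counted ATP8 at -0.80. In F4MKO against WT livers they were at -0.43, 0.10, 0.61 and -0.14 in the same order.

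**Figure D3:**
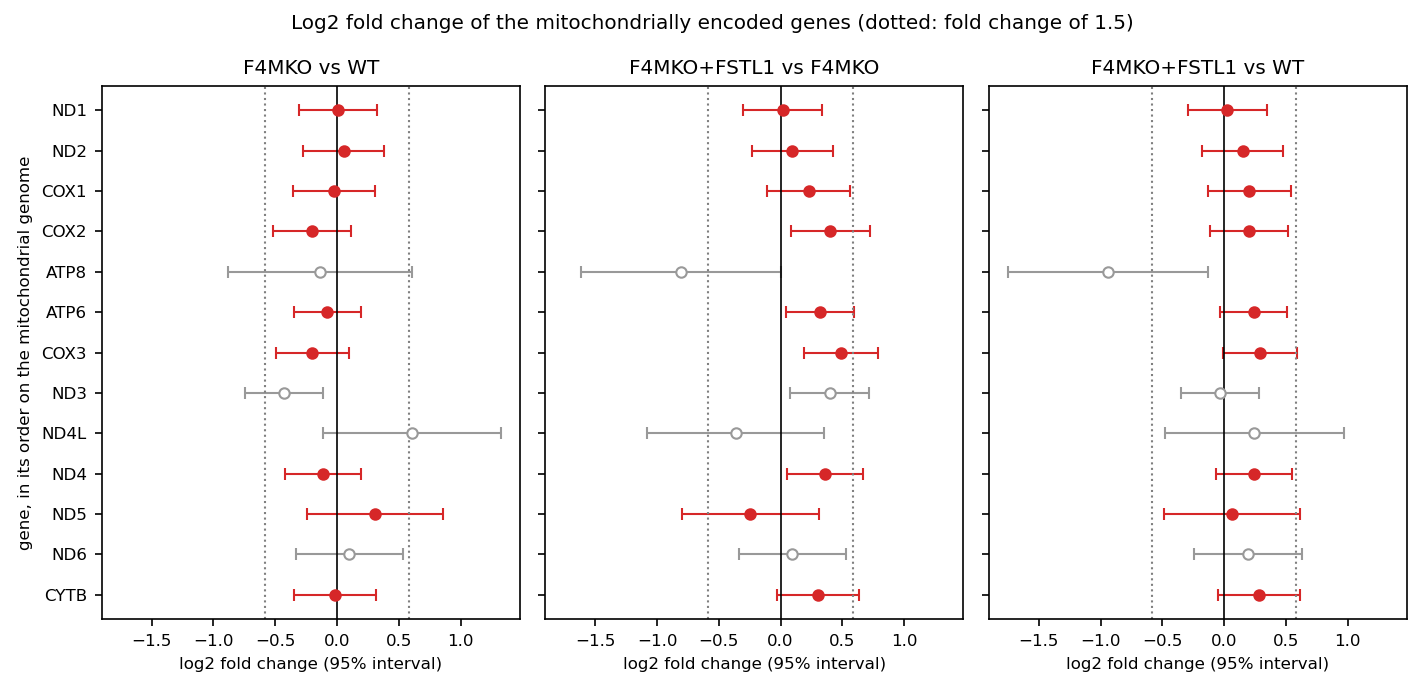
Log2 fold change with its 95% interval (horizontal axis) for the 13 mitochondrially encoded genes in their order on the genome (vertical axis), in the 3 comparisons. Filled red points are the 9 genes described, open grey points the other 4, and dotted lines mark a fold change of 1.5. The intervals of COX2, ATP6, COX3 and ND4 lie above 0 for F4MKO+FSTL1 against F4MKO, and each red interval crosses 0 for F4MKO against WT.

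Between F4MKO+FSTL1 and WT livers 0 of the 9 genes passed the same test. DESeq2 called 0 as well, and 0 had an unadjusted p under 0.05, against 1924 of all 14379 genes tested. Of all genes tested 0.00695% were called, with or without the fold change, which is 0 higher and 1 lower. With library totals there were 1 higher and 1 lower. The 9 genes had a median log2 fold change of 0.20, with 9 higher and 0 lower under TMM factors, 7 and 2 with library totals and 8 and 1 with upper quartile scaling. The largest was COX3, at 0.29 (95% interval -0.01 to 0.59, adjusted p = 0.385 from edgeR), followed by CYTB at 0.28 (95% interval -0.05 to 0.62), ND4 at 0.24 and ATP6 at 0.24. The normalized levels did not overlap for 5 of 9, ND2, CYTB, COX3, ND4 and ATP6, against 18.2% of all genes tested. This comparison shares its F4MKO+FSTL1 livers with the one before it, and its WT livers with the first.

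Ratios between the genes of 1 library do not depend on how libraries are scaled. Relative to ND1, which no annotated nuclear transcript matched, COX3 was counted at 0.118 ± 0.0119 reads per ND1 read in WT, 0.103 ± 0.0138 in F4MKO and 0.142 ± 0.00293 in F4MKO+FSTL1 livers (SD, n = 3). The ND4 ratio was 0.677 ± 0.0411, 0.623 ± 0.0381 and 0.788 ± 0.0410, and the CYTB ratio was 1.25 ± 0.0722, 1.23 ± 0.0877 and 1.50 ± 0.143 in the same order. For these 3 genes each F4MKO+FSTL1 library lay above each library of both other groups. For CYTB this was nearly a tie with WT, at 1.336 in the lowest F4MKO+FSTL1 library and 1.335 in the highest WT library. The ratio did not overlap between F4MKO+FSTL1 and F4MKO livers for 4 of 8 genes, COX2, COX3, ND4 and CYTB, against 26.0% of all genes tested. Between F4MKO+FSTL1 and WT livers it was 3 of 8, COX3, ND4 and CYTB, against 17.0%, and between F4MKO and WT livers it was 0 of 8, against 12.5%. Nearly all genes behind these shares are nuclear-encoded. Their ratios to ND1 also carry differences between nuclear and mitochondrial RNA, so the shares are not a like standard for the 8 genes.

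Among the 36 pairs that the 9 genes form, Pearson's r of log2 CPM over the 9 libraries ran from -0.44 to 0.93 with a median of 0.61, and 24 pairs were above 0.5. The pairs share libraries, depth and scaling, so these values are a description. All 4 pairs below 0 held ND5, paired with COX2, COX3, ATP6 and ND4. Without ND5 the lowest of 28 pairs was 0.32 and the median was 0.72. COX2 and ATP6 (r = 0.93), COX1 and CYTB (0.91) and ND4 and CYTB (0.90) were the closest, whereas COX3 and ND5 (-0.44) were the farthest apart.

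ND5 set itself apart within each group. The log2 ratio of its counts to those of ND1 was -2.17, -1.25 and -1.91 in WT, -1.29, -1.32 and -1.73 in F4MKO, and -1.36, -1.74 and -2.07 in F4MKO+FSTL1 livers, a range inside each group that is wider than any difference between group means. The log2 CPM of ND4L, which is not 1 of the 9 and lies just before ND4, correlated with that of ND5 at r = 0.91 over 9 libraries. ND5 is the longest of the mitochondrial genes (1824 bases) and ND4L 1 of the shortest (297 bases). Each library was also given a value for the balance of long and short nuclear-encoded transcripts, the median log2 CPM, relative to each gene's mean, of 2470 genes with a longest transcript over 5000 bases minus that of 493 genes with one under 1000 bases. This value was chosen after the spread of ND5 was seen. It ran from -0.31 in F4MKO+FSTL1 replicate 3 to 0.34 in F4MKO replicate 1, and it was -0.17, 0.12 and -0.16 in WT, 0.34, 0.27 and -0.07 in F4MKO, and 0.05, -0.05 and -0.31 in F4MKO+FSTL1 livers. Over the 9 libraries it had a Pearson's r of 0.90 with the ND5 ratio and 0.92 with the ND4L ratio, and of -0.07 with the mean level of the 9 genes. The part of RNA quality or library preparation in the ND5 values was not tested. The end of ND5 overlaps ND6, on the other strand, by 14 bases, and the strand setting of the counts is not given in the sources used here.

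**Figure D4:**
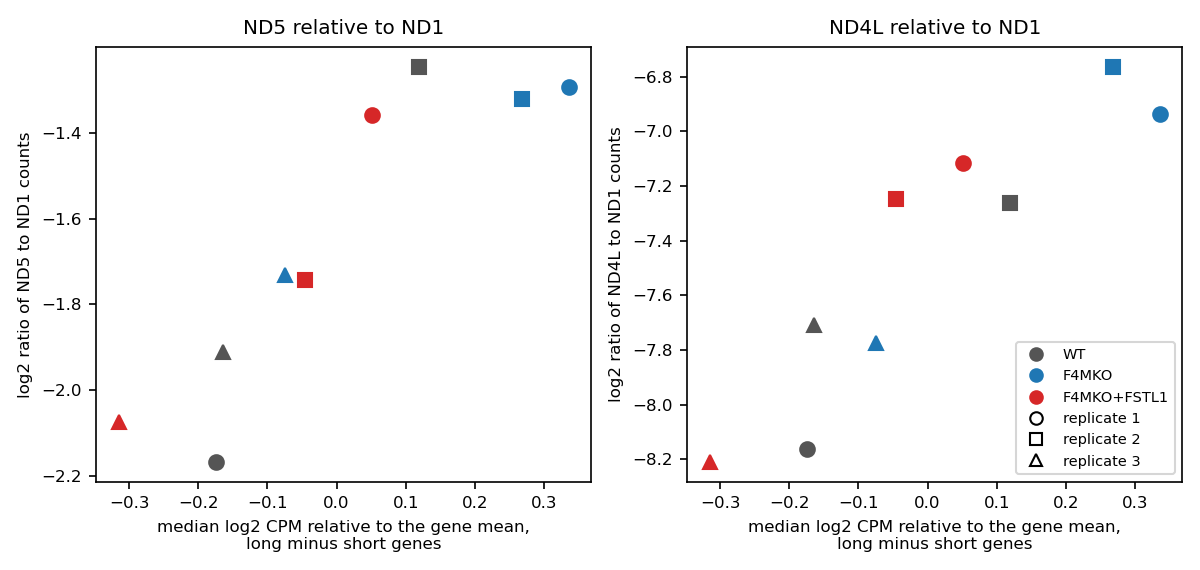
Log2 ratio of ND5 counts (left) and ND4L counts (right) to ND1 counts in each of the 9 libraries (vertical axes) against the median log2 CPM of long minus short nuclear-encoded transcripts (horizontal axes). Colours give the group and shapes the replicate number. Libraries of each group are spread along the rise, from F4MKO+FSTL1 replicate 3 at -0.31 to F4MKO replicate 1 at 0.34.

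The nuclear-encoded subunits of the same complexes had small log2 fold changes of 1 sign in F4MKO compared with WT livers. Of 69 tested subunits of complexes I, III, IV and V, 0 were higher and 69 lower, with a median log2 fold change of -0.28 and a range from -0.42 to -0.08, and none was called or passed the adjusted p. The summed level of the complex I subunits was 3402, 2963 and 3283 CPM in WT livers and 2306, 2594 and 3094 CPM in F4MKO livers. For complexes I, III, IV and V alike, F4MKO replicates 1 and 2 lay below every WT library and replicate 3 lay inside the WT range. Replicates 1 and 2 also had the highest long-transcript values of the 9 libraries, 0.34 and 0.27, and the part of these in the difference was not tested. The 9 mitochondrially encoded genes had a median of -0.02. By complex, the nuclear-encoded median was -0.29 for the 34 subunits of complex I, where ND1, ND2, ND4 and ND5 ran from -0.12 to 0.31. It was -0.28 for the 9 of complex III beside -0.02 for CYTB, -0.27 for the 11 of complex IV beside -0.20 to -0.02 for COX1, COX2 and COX3, and -0.27 for the 15 of complex V beside -0.08 for ATP6. Between F4MKO and F4MKO+FSTL1 livers, 69 of the 69 were higher with FSTL1, with a median of 0.33. None was called, and 11 passed the adjusted p, a share below the 20.9% of all genes tested, among them Ndufb9 (log2 fold change 0.52, SE 0.13, adjusted p = 0.0167 from edgeR) and Ndufb11 (0.47), accessory subunits of complex I, Uqcrb (0.41) and Uqcr11 (0.40), small subunits of complex III, and Cox6c (0.47), a small subunit of complex IV. In this comparison COX3, COX2, ND4, ATP6 and CYTB lay inside the nuclear-encoded range of 0.13 to 0.76, as did COX1, and ND1, ND2 and ND5 lay below it. Against WT livers, 57 of the 69 were higher and 12 lower in F4MKO+FSTL1 livers, with a median of 0.05. The signs of the 69 were counted under TMM factors only. With library totals the median of all genes was 0.11 for F4MKO against WT, where the 69 reached up to -0.08. It was -0.18 for F4MKO+FSTL1 against F4MKO, where they began at 0.13, and -0.08 for F4MKO+FSTL1 against WT livers.

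The ratio of mitochondrially to nuclear-encoded counts within a complex, which needs no scaling, ranged more widely among F4MKO libraries than between group means. For complex I it was 7.21, 8.35 and 7.34 in WT, 9.68, 11.6 and 7.30 in F4MKO, and 9.05, 7.73 and 7.02 in F4MKO+FSTL1 livers. For complex III, CYTB over 9 nuclear-encoded subunits, it was 5.99, 6.86 and 5.92 in WT, 7.79, 9.28 and 5.58 in F4MKO, and 8.36, 7.19 and 6.15 in F4MKO+FSTL1 livers. In both complexes F4MKO replicates 1 and 2 were above every WT library and replicate 3 was near or below the lowest of them. Complex IV gave means of 7.23 ± 0.916, 8.57 ± 1.50 and 7.98 ± 1.65, and complex V 0.306 ± 0.0176, 0.347 ± 0.0705 and 0.358 ± 0.0355 (SD, n = 3, WT, F4MKO and F4MKO+FSTL1). The groups overlapped for all 4 complexes. The part of the long-transcript values of F4MKO replicates 1 and 2 in the ratio was not tested either.

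**Figure D5:**
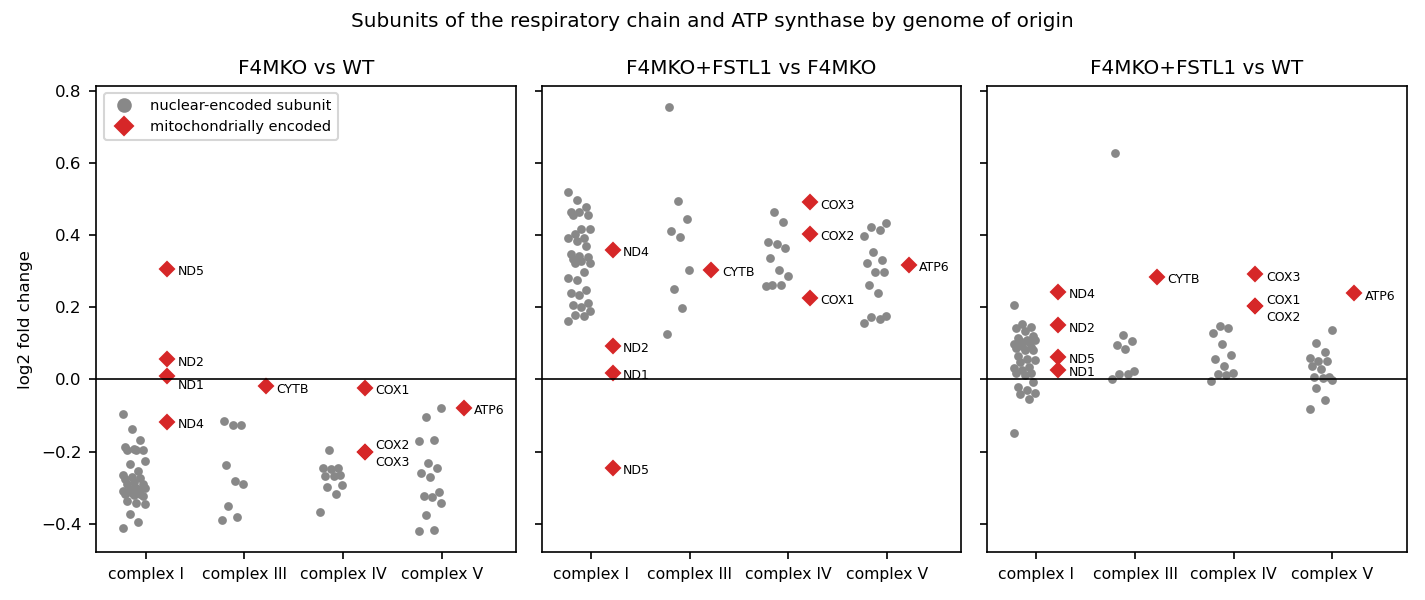
Log2 fold change (vertical axis) of 69 nuclear-encoded subunits (grey points) and the 9 mitochondrially encoded genes (red diamonds, named) by complex, in the 3 comparisons. In F4MKO compared with WT livers the grey points lie between -0.42 and -0.08 and the diamonds between -0.20 and 0.31, and for F4MKO+FSTL1 against F4MKO the grey points lie between 0.13 and 0.76.

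Of 21 tested genes that copy or transcribe mitochondrial DNA, 0 were called in any comparison. In F4MKO compared with WT livers 6 were higher and 15 lower (median log2 fold change -0.13), with Ssbp1, the single-stranded DNA-binding protein of mitochondria, at -0.31 and Tfam, which packs mitochondrial DNA and starts its transcription, at -0.28 (34.9 against 42.2 CPM, adjusted p = 0.260 from edgeR). With FSTL1 returned, relative to F4MKO livers, 16 were higher and 5 lower (median 0.18), and 4 passed the adjusted p alone, also below the share of all genes tested, among them Ssbp1 at 0.44 (adjusted p = 0.00981), Tfam at 0.38 (adjusted p = 0.0379) and the transcription factor Tfb2m at 0.35 (adjusted p = 0.0264). Compared with WT livers 16 were higher and 5 lower (median 0.08).

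Among 27 tested genes that process or translate mitochondrial RNA, 1 was called, for F4MKO+FSTL1 against F4MKO. This is a share below the 14.4% of all genes called in that comparison. Hsd17b10, a subunit of the enzyme that cuts the 5′ ends of mitochondrial tRNAs and also a dehydrogenase of branched-chain amino acid breakdown, rose from 123 to 235 CPM between F4MKO and F4MKO+FSTL1 livers (log2 fold change 0.93, SE 0.16, adjusted p = 0.00313 from edgeR). It was at 170 CPM in WT livers, a log2 fold change of -0.47 for F4MKO (adjusted p = 0.176) that did not pass. In the second comparison 24 of the 27 were higher and 3 lower (median 0.16), with the initiation factors Mtif3 at 0.50 and Mtif2 at 0.36 past the adjusted p alone. In the first, 6 were higher and 21 lower (median -0.13), and compared with WT livers 23 of the F4MKO+FSTL1 values were higher and 4 lower (median 0.09). Of 9 tested regulators of mitochondrial biogenesis 0 were called. The nuclear receptors Ppara (log2 fold change 0.58, 330 against 221 CPM) and Esrra (0.40) passed the adjusted p alone between F4MKO+FSTL1 and F4MKO livers, and the coactivator Pprc1 was at -0.39 (adjusted p = 0.187). Of 16 nuclear-encoded proteins used as measures of mitochondrial content, 14 were higher and 2 lower in this comparison (median 0.22). The 1 called, also a share below that of all genes, was Slc25a4, an ADP/ATP carrier of low level in these livers. It fell by 0.71 on the log2 scale to 6.16 CPM (adjusted p = 0.0191 from edgeR). The median of the same 16 was -0.09 in F4MKO compared with WT and 0.08 in F4MKO+FSTL1 compared with WT livers.

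Markers of other liver cells moved between the same groups, and in bulk tissue fewer cells of a type and less RNA per cell cannot be told apart. In F4MKO+FSTL1 compared with F4MKO livers, 6 of 8 hepatic stellate cell, 4 of 8 macrophage and 4 of 5 cholangiocyte markers were called lower. By sign, 8, 6 and 5 of these markers were lower, and 2 macrophage markers were higher. Of 5 red cell markers 1 was called higher, and 5 were higher by sign. For hepatocytes 0 of 8, for endothelium 0 of 8 and for lymphocytes 0 of 7 markers were called. Of all genes tested 14.4% were called in this comparison, 461 higher and 1609 lower. The summed cholangiocyte level ran from 50.7 to 88.9 CPM in WT, from 160 to 430 in F4MKO and from 36.1 to 53.8 in F4MKO+FSTL1 livers. That of stellate cells ran from 393 to 457, from 522 to 686 and from 254 to 348 CPM, and that of macrophages from 424 to 688, from 438 to 549 and from 248 to 396 CPM. The hepatocyte sum ran from 94062 to 98761, from 69329 to 100352 and from 80080 to 97040 CPM, overlapping in all groups. In F4MKO compared with WT livers 2 of 5 cholangiocyte markers were called higher, against 0.271% of all genes called, and 5 were higher by sign. Of the 8 skeletal muscle markers 6 are listed and 0 reached the level for testing. The part of cell makeup in the levels of the 9 genes was not tested.

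Over the 9 libraries, the nuclear genes whose log2 CPM followed the mean log2 CPM of the 9 mitochondrial genes most closely were Mapk1ip1 (Pearson's r = 0.98), Osbp2 (0.97), B130034C11Rik (0.95), Smarcd2 (0.94) and Furin (0.93). The lowest values were those of Mutyh (-0.95), Pwp1 (-0.94) and Prickle2 (-0.93). For deviations from the group means the highest were Tmie (0.98), Hoxb5 (0.98), Mapk1ip1 (0.97), Camk1d (0.97) and Osbp2 (0.96), and the lowest were Pbx4 (-0.95), Gemin6 (-0.94) and Gm21320 (-0.94). Some of these genes were barely counted, among them Osbp2 (0.319 to 1.45 CPM), B130034C11Rik (0.424 to 0.981), Mutyh (0.421 to 0.884), Hoxb5 (0.359 to 1.17) and Pbx4 (0.503 to 2.09). These names are the extremes of 14379 genes over 9 points, and they are given as a description. No nuclear-encoded subunit of the respiratory chain was among them. With 69 such subunits among 14379 genes, so short a list cannot tell whether the subunits followed the 9 mitochondrial genes.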

How the data were processed

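Liver RNA in 9 libraries (3 WT, 3 F4MKO and 3 F4MKO+FSTL1) was sequenced by the authors as paired-end reads on BGIseq500. Per the submitters' processing notes, reads were trimmed with Trim Galore 0.6.7, mapped to mm10 with HISAT2 2.2.1 and assigned to genes with featureCounts 2.0.1. The table the authors deposited holds raw read counts, with no normalization. The annotation, the strand setting and the treatment of reads with several matches are not given in the sources used here.

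The software was R 4.3.3 and edgeR 4.0.16. The function filterByExpr (minimum count 10, minimum total 15) left 14379 of 24008 genes. Library sizes were normalized by TMM, all 9 libraries and their 3 groups entered 1 quasi-likelihood fit, and p-values were adjusted by Benjamini-Hochberg over all genes tested. A gene was called at an adjusted p under 0.05 and a fold change above 1.5, as in the study's methods. Correlations used log2 CPM with a prior count of 2. The fit was tested on simulated data. Between 20656976 and 24322984 reads were counted per library, so that the spread between replicates, with a common biological coefficient of variation of 0.150, rather than counting error sets the precision.

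Gene positions and lengths came from RefSeq (GRCm38.p6), and nuclear copies from blastn 2.17.0 against GENCODE vM21 transcripts outside the mitochondrial genome. The 21 copies found went down to 81.62% identity. A limit on the match score left out short stretches, such as the 43 bases that ATP8 shares with ATP6. The share of a gene inside copies, and the copies on chromosome 1, were counted at an identity of at least 99%. The copy match and the long-transcript value were added after seeing the data.

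The 9 genes, the gene lists and the tests were chosen with earlier results of these data known. Named genes were all mitochondrially encoded genes, up to 3 tested genes of each list and comparison with the smallest unadjusted p, and the 5 highest and 3 lowest correlates of the mean level. Nothing in the labels says that same-numbered livers share a cage, day or batch. Alternatives were DESeq2 1.42.0, other scalings, no filter, a fit of the 6 libraries compared, a replicate block, no fold threshold and each library left out.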

Additional observations from a re-analysis of the deposited data

How the results depend on the processing

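In each of the alternatives tried with both thresholds, 0 of the 9 genes passed in any comparison. With the adjusted p alone, for F4MKO+FSTL1 against F4MKO, the count was 1 in edgeR, COX3, and 4 in DESeq2, COX3, COX2, ND4 and ATP6. In edgeR 20.9% of all genes tested passed it, and the share in DESeq2 was not counted. Of 459 alternative log2 fold changes, 433 kept their sign and 26 reversed, and none was called. With library totals the log2 fold changes of CYTB, COX1 and ATP6 in F4MKO compared with WT livers became 0.09, 0.09 and 0.04, those of ND1 and ND2 for F4MKO+FSTL1 against F4MKO -0.17 and -0.10, and those of ND1 and ND5 in F4MKO+FSTL1 compared with WT livers -0.05 and -0.02. With upper quartile scaling CYTB and COX1 became 0.01 and 0.01 in the first comparison, ND1 -0.04 in the second and ND1 0.00 in the last. Leaving out 1 library gave, in the first comparison, -0.13 to 0.12 for ND1, -0.11 to 0.14 for ND2, -0.18 to 0.05 for CYTB and -0.12 to 0.05 for COX1, in the second -0.09 to 0.15 for ND1, and in the last 0.00 to 0.07 for ND1 and -0.16 to 0.34 for ND5.

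The number of all genes called in F4MKO compared with WT livers, 39, became 338 with DESeq2, 59 with library totals, 478 without the filter, 11 with a fit of the 6 libraries compared and 134 with the replicate block, and 0 to 100 with 1 library left out. It was 0 without any 1 of the WT libraries or F4MKO replicate 1, 100 without F4MKO replicate 3, and 24, 23 and 19 without F4MKO+FSTL1 replicates 1, 2 and 3. In F4MKO+FSTL1 compared with WT livers, 1 became 284 with DESeq2, 2 with DESeq2's size factors, 2 with library totals, 379 without the filter, 0 with 6 libraries and 15 with the block, and 0 to 101 with 1 library left out, 101 without F4MKO+FSTL1 replicate 3, 15 without WT replicate 3, 9 without WT replicate 1, 5 without F4MKO replicate 2 and 0 without each of the others. For F4MKO+FSTL1 against F4MKO, 2070 became 1295 to 2216 with 1 library left out, 1335 without F4MKO replicate 1 and 1295 without F4MKO+FSTL1 replicate 2. The cause of these shifts was not tested.

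Replicates are numbered 1 to 3 in each group. How far the libraries of 1 number lay from the means of their groups correlated, across genes, at 0.08, 0.04 and 0.17 in the first comparison, 0.11, 0.09 and 0.30 in the second and 0.00, -0.10 and 0.21 in the last, so the numbers were not taken to pair the samples. With the replicate block 0 of the 9 genes were called, and COX3 had an adjusted p of 0.0208 in the second comparison. With 3 libraries per group, a 95% interval of about ±0.3 on the log2 scale was reached for most of the 9 genes and of ±0.55 for ND5, so smaller differences could not be told from 0. Somewhat larger ones could be missed too. In the second comparison COX2 (0.40), ND4 (0.36) and ATP6 (0.32) missed the adjusted p in edgeR, while COX3 (0.49) passed it.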
